A study of Mus musculus with 10 samples.

Results

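Apolipoprotein genes were examined in RNA of sorted liver cells, labelled liver hepatocyte and titled HCC (not spelled out in the labels), from mice that received Cre against a floxed EP300 gene and from their controls. The set is a list of 10 genes (Apoa1, Apoa2, Apoa4, Apoa5, Apob, Apoc1, Apoc3, Apoe, Apoh and Apom), taken by symbol from the 55385 gene identifiers of the deposited count table, and all 10 were found and passed the filter on low counts. Of these, 4 lie side by side on chromosome 9 (Apoa1, Apoc3, Apoa4 and Apoa5), and the other 6 lie elsewhere. The comparison asked whether the 4 clustered genes and the other 6 differed between the libraries labelled EP300 KO and EP300 WT. All 4 libraries came from mice of strain C57BL/6J 129SV with a floxed EP300 gene, all were fed DDC, which causes chronic liver and bile duct damage, and all received a cMet plasmid (pT3-cMet), which carries a receptor tyrosine kinase, through the tail vein, for 5 months. The EP300 KO group (genotype EP300-/-, 2 libraries) received AAV-TBG-Cre, and the EP300 WT group (genotype EP300f/f, 2 libraries) received AAV-TBG-GFP. TBG is a promoter active mainly in hepatocytes, and which cells had recombined was not measured here. Age and sex are not given in the labels and no label links a library to 1 animal, while pooled sequencing is mentioned. The spread behind each p-value is therefore that between libraries, and it may be technical. The other 6 of the 10 samples belong to a diet experiment in separate tables and were not analysed here.

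Apolipoproteins are the protein part of lipoproteins, the particles that carry fat and cholesterol in blood. APOB is the structural protein of the triglyceride-rich particles that the liver secretes, APOA1 and APOA2 form the high-density particles (HDL), and the smaller exchangeable proteins, among them APOC1, APOC3, APOE, APOA4 and APOA5, tune how lipases and receptors act on a particle. Hepatocytes make most of these proteins, the intestine is a second large source of APOA1, APOA4 and APOB, and macrophages also make APOE.

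Before the members, 4 facts about the libraries bear on every value. Libraries held 18575701 and 18831671 counts (EP300 WT) or 17709799 and 17811489 counts (EP300 KO). Ep300 itself, a histone acetyltransferase gene, was not reduced under the KO label but higher there (log2 fold change 0.28, SE 0.07, edgeR adjusted p = 0.00498; not passed without EP300 WT replicate 2, adjusted p = 0.128). Where a library is left out, here and below, its group holds 1 library, the spread comes from the other pair alone, and the lone library is assumed to vary like that pair. A gene-level count cannot show whether an exon was deleted, so every direction is drawn between libraries as labelled. Xist, which is transcribed in cells with 2 X chromosomes, had 2310 and 1411 counts in EP300 KO and 3 and 2 in EP300 WT, while the Y-linked Ddx3y had 954 and 813 counts in EP300 KO and 1079 and 1077 in EP300 WT. Xist thus moved with the label and Ddx3y did not pass, and the part of the animals' sex in the results below was not tested. Hepatocyte markers were abundant in every library. In EP300 WT their summed level was 102420 to 102659 CPM (counts relative to library size, scaled by TMM). In EP300 KO it was 106992 to 108337 CPM. Most of that sum was albumin (Alb, named after its values were seen), whose mean went from 78219 to 72611 CPM. Of 15 such genes 11 rose and only Alb fell, with a median log2 fold change of 0.36. The sum thus understates the rise of the others. Of all 14200 genes tested, 16.7% passed as higher and 17.5% as lower.

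The chromosome 9 genes sit within 43340 bases (chr9:46228580-46271919, mm10, GENCODE M21). Apoa1 lies on the plus strand (chr9:46228580-46230466), Apoc3 on the minus strand (chr9:46232933-46235636), and Apoa4 (chr9:46240696-46243459) and Apoa5 (chr9:46268633-46271919) on the plus strand. Only 2466 bases separate Apoa1 from Apoc3 and 5059 bases separate Apoc3 from Apoa4, whereas 25173 bases lie between Apoa4 and Apoa5. Because neighbours this close changed unequally, the bases just before the start of 3 clustered genes are shown, with those of Apoa2, the member with the largest rise. They come from the RefSeq promoter table (GRCm38.p6), which held windows for 8 of the 10 members and none for Apoc1 and Apoc3. Each run is on the plus strand and ends at the GENCODE start of its gene: chr9:46228380-46228579 for Apoa1, chr9:46240594-46240695 for Apoa4, chr9:46268383-46268632 for Apoa5 and chr1:171224804-171225053 for Apoa2. Capitals mark matches to the motifs listed after the sequences.
Apoa1: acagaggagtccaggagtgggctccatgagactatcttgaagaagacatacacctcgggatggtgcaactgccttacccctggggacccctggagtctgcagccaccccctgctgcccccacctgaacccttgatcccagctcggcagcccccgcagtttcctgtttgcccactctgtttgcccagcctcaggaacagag
Apoa4: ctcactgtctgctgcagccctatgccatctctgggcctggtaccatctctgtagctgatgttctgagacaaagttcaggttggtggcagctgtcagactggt
Apoa5: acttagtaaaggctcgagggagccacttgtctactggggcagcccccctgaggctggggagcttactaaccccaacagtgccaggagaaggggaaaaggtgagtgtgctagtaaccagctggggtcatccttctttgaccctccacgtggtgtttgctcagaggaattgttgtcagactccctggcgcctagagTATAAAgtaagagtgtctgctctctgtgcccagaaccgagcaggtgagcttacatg
Apoa2: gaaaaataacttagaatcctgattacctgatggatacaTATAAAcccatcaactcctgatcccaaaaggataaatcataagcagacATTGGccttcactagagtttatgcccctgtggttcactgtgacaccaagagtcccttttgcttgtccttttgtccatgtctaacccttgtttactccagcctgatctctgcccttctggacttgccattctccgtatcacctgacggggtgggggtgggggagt
The 250 bases before each RefSeq start were searched on both strands for exact matches to 6 motifs. These were the TATA box TATAAA, the CCAAT motif itself, the nuclear receptor core motif AGGTCA and the HNF1 arm GTTAAT. The others were the HNF4A elements CAAAGTCC (first) and CAAAGGTC (second). The second HNF4A element can overlap the nuclear receptor core motif. Apoa5 held the TATA box letters at position -56 from its start. Apoa2 held the same letters at -212 and the CCAAT motif on the opposite strand at -164. Apob held the TATA box letters at -60 and the second HNF4A element on the opposite strand at -94. Apoh held the nuclear receptor core motif on the opposite strand at -215. None of the 6 motifs was matched in the windows of Apoa1, Apoa4 and Apoe, so a window without a match was found for members that fell and for one that did not pass. Sites that differ from these letters by any base were not searched for, so a window without a match may still hold such a site. The window of Apom was not searched, since nearly all of it lies inside the annotated gene. The Apoh window was searched, although it too lies inside its annotated gene (GENCODE start 108343354, RefSeq start 108395297). Its match is therefore not upstream of the annotated gene. The searched windows of Apoa1, Apoa4 and Apob also run in part past the GENCODE start. Among all 32851 RefSeq windows, 12.4% held the TATA box, 33.8% the CCAAT motif, 14.0% the nuclear receptor core motif and 6.43% the HNF1 arm. The first and second HNF4A element were held by 1.196% and 1.01%. The Apoa4 bases shown also lie inside an exon of Gm47528, an unconfirmed gene model on the minus strand (chr9:46239841-46242032), while those of the other 3 lie in no exon of GENCODE M21.

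Per length, apolipoprotein transcripts spanned a wide range, with Apoe and Apoa1 far above the others. In RPKM (reads per kilobase of annotated exon, scaled as CPM), the WT-labelled libraries had Apoe at 13857 ± 73.2 (SD, n = 2 here and below), Apoa1 at 12719 ± 139 and Apoa2 at 4419 ± 6.23. Next came Apoc1 at 1312 ± 17.8, Apoh at 985 ± 15.8 and Apoc3 at 915 ± 9.60 RPKM. Apoa4 (499 ± 30.8 RPKM) and Apoa5 (472 ± 11.1) overlapped in range, and Apob (322 ± 4.97) and Apom (276 ± 5.33) were the lowest. In the KO-labelled libraries Apoa1 stood at 8018 ± 640 RPKM, closer to Apoa2 at 6564 ± 78.8, and Apoa4 dropped to the last place at 164 ± 21.2, below Apom at 221 ± 18.6. Apoc1 (1335 ± 80.3 RPKM) and Apoh (1313 ± 12.4) overlapped there. The level of Apoa4 is uncertain, since 69.8% of its exon bases also lie in exons of other genes and how such reads were counted was not stated.

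**Figure D1:**
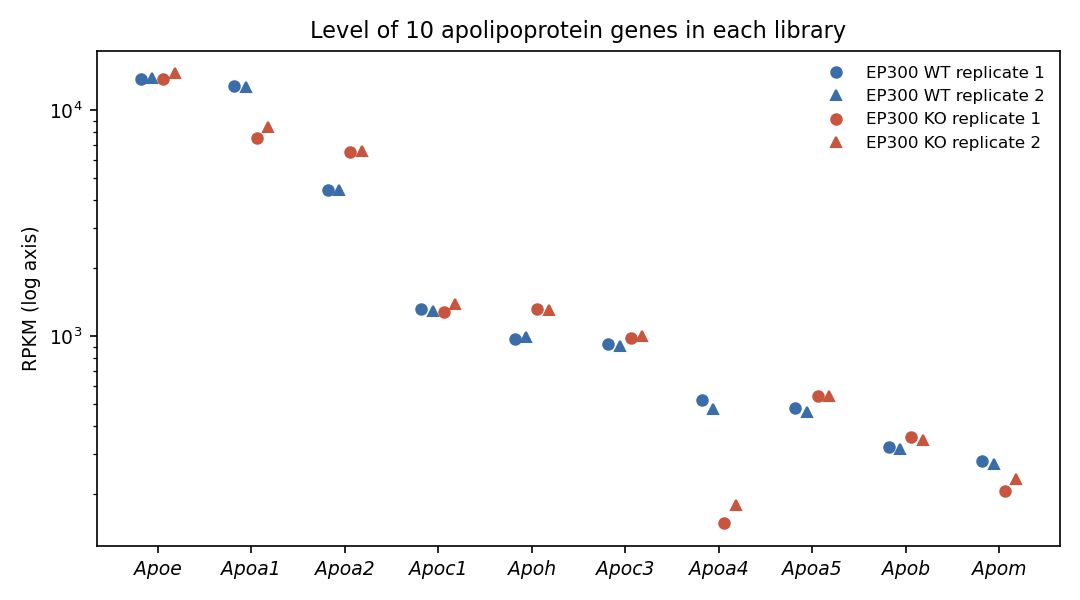
Level of each member in RPKM (log axis) in the 4 libraries, ordered by the mean of EP300 WT; blue is EP300 WT, red is EP300 KO, and circles and triangles are replicates 1 and 2. Apoa4 stands at 499 RPKM in EP300 WT and 164 in EP300 KO, the widest gap, and Apoe and Apoc1 overlap between the groups.

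The clustered genes did not move together: Apoa4 and Apoa1 fell, Apoa5 rose slightly, and Apoc3, which lies between the genes that fell, did not pass the test. Of the 10 members, 4 rose (Apoa2, Apoh, Apoa5 and Apob) and 3 fell (Apoa4, Apoa1 and Apom) at an edgeR adjusted p below 0.05. Of all 14200 genes tested 34.2% passed, 16.7% higher and 17.5% lower. Among the 1272 genes with a mean of at least 100 CPM, as all members have, 68.3% passed, so the number of members that passed is close to what genes of such abundance show. The median absolute log2 fold change of those abundant genes was 0.26. Of them 2.44% exceeded the change of Apoa4 and 14.5% that of Apoa1. Leaving out EP300 WT replicate 1 or replicate 2 left 2 rises and 2 falls (Apoa2, Apoh, Apoa1 and Apoa4), leaving out EP300 KO replicate 1 gave 7 rises and 3 falls, and leaving out EP300 KO replicate 2 gave 5 and 3. These last fits have no spread between KO-labelled libraries, so calls gained there are not replicated rises or falls.

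Apoa4, an exchangeable apolipoprotein of HDL and intestinal particles, had the largest change. Its level was 945 and 866 CPM in EP300 WT replicates 1 and 2, and 270.5 and 325 CPM in EP300 KO replicates 1 and 2. Both KO-labelled libraries lay far below both WT-labelled ones. The means of 905 ± 55.9 and 298 ± 38.5 CPM correspond to a 3.04-fold lower level (log2 fold change -1.60, SE 0.08, adjusted p = 1.40e-10). The overlapping model Gm47528, named after its values were seen, also fell, from 249 and 240 counts in EP300 WT to 54 and 66 in EP300 KO (-1.88, SE 0.16). Without strand, its reads and those of Apoa4 cannot be told apart. Gm10680, an antisense model over the end of Apoa4, and Gm47544, one over Apoa5, had 0 counts in all 4 libraries. How reads in these shared exons were assigned is not known, and its part in the Apoa4 value was not tested.

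Apoa1, the main protein of HDL, stood at 15842 and 15598 CPM in EP300 WT and at 9351 and 10469 CPM in EP300 KO. The groups did not overlap, as for 66.4% of all genes tested. The level was 1.59-fold lower (log2 fold change -0.67, SE 0.05, adjusted p = 3.23e-08). No other annotated exon overlaps those of Apoa1.

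Apoc3, which inhibits the lipolysis and uptake of triglyceride-rich particles, stood at 935 and 921 CPM in EP300 WT and at 997 and 1017 CPM in EP300 KO. The KO-labelled values were both higher, by little (log2 fold change 0.12, SE 0.05, adjusted p = 0.0815). Its adjusted p was 0.0439 with limma-voom. With a single KO-labelled library it was 0.00128 (without EP300 KO replicate 1) and 0.0202 (without EP300 KO replicate 2), where the WT-labelled pair alone gave the spread. Apoa5, which promotes triglyceride lipolysis, was at 1209 and 1169.6 CPM in EP300 WT and at 1366 and 1373 CPM in EP300 KO. It rose by 0.20 on the log2 scale (SE 0.05, adjusted p = 0.00426), but was not called when EP300 WT replicate 1 (0.0753) or replicate 2 (0.142) was left out. Of its exon bases, 20.8% are shared with Gm47544.

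**Figure D2:**
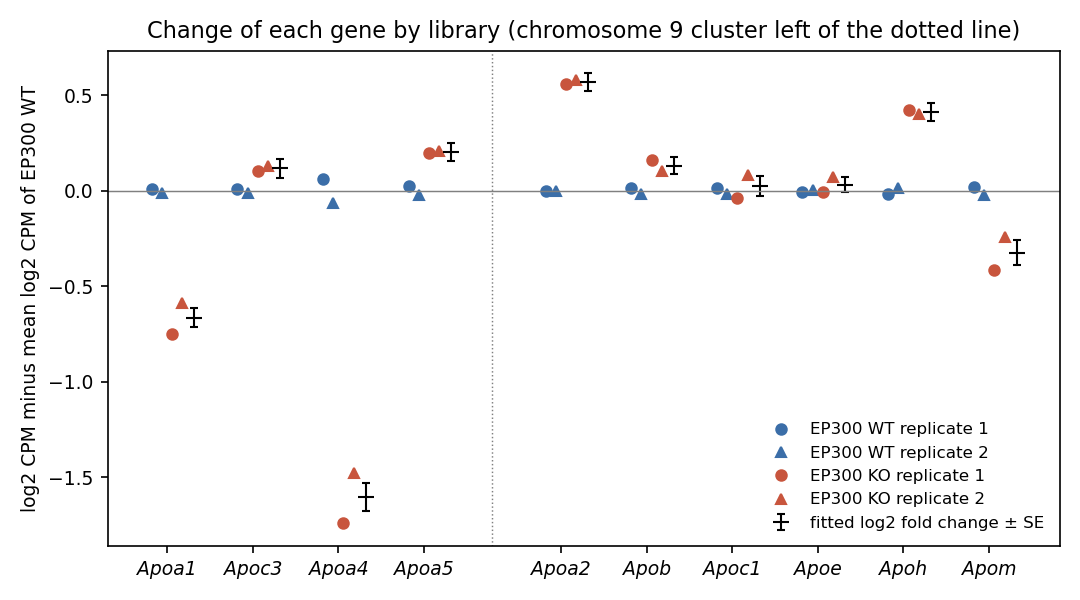
Log2 CPM of each member in each library, less the mean log2 CPM of EP300 WT, with the chromosome 9 genes left of the dotted line; blue is EP300 WT, red is EP300 KO, circles and triangles are replicates 1 and 2, and black marks are fitted log2 fold changes with SE. Apoa4 (-1.60) and Apoa1 (-0.67) lie below zero, Apoa2 (0.57) and Apoh (0.41) above it, and Apoe and Apoc1 on it.

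Ratios within a library do not depend on scaling between libraries. The Apoa1 to Apoc3 count ratio was 17.0 and 16.9 in EP300 WT against 9.38 and 10.3 in EP300 KO. The Apoa4 to Apoc3 ratio was 1.01 and 0.940 in EP300 WT against 0.271 and 0.320 in EP300 KO. Apoa4 was also lower relative to Apoa1: their ratio was 0.0596 and 0.0555 in EP300 WT against 0.0289 and 0.0310 in EP300 KO, a difference of -0.94 in log2 ratio with a pooled replicate SD of 0.07. The Apoa5 to Apoc3 ratio was 1.29 and 1.27 in EP300 WT against 1.37 and 1.35 in EP300 KO. Across all 9 gene pairs set against each other, an exact two-sided permutation test gave p = 0.333, the smallest that 2 against 2 libraries allow, for 8 pairs (0.375 after Benjamini-Hochberg adjustment). The ninth pair, Apoe to Apoc1, had an exact permutation p = 0.667.

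The cluster's median log2 fold change was -0.27, against 0.08 for the other 6 members and -0.0052 for all genes tested. The difference was -0.36. Apoa1 and Apoa4 lay below every other member, while Apoc3 and Apoa5 lay within the range of the other 6 (-0.32 to 0.57). The clustered genes made up 32.3% ± 0.364 of the members' counts in EP300 WT and 23.0% ± 0.712 in EP300 KO. Of the clustered counts, Apoa1 alone held 83.9% ± 0.271 and 78.7% ± 0.981. As a share of all counts, the cluster took 1.92% ± 0.0278 in EP300 WT and 1.23% ± 0.0837 in EP300 KO, while the other 6 took 4.02% ± 0.00872 and 4.11% ± 0.115.

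None of the tested genes around the cluster fell as far as Apoa1 or Apoa4. Of 10 listed neighbours 9 were tested, 3 rose and 1 fell, with a median of 0.08. Sidt2 (0.23), Pcsk7 (0.24) and Zpr1 (0.21, named after its values were seen), the gene 1144 bases beyond Apoa5, rose slightly, and Pafah1b2 fell by 0.34. Sik3, which ends 4385 bases before Apoa1, stood at -0.04 on that scale (SE 0.07, adjusted p = 0.666).

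**Figure D3:**
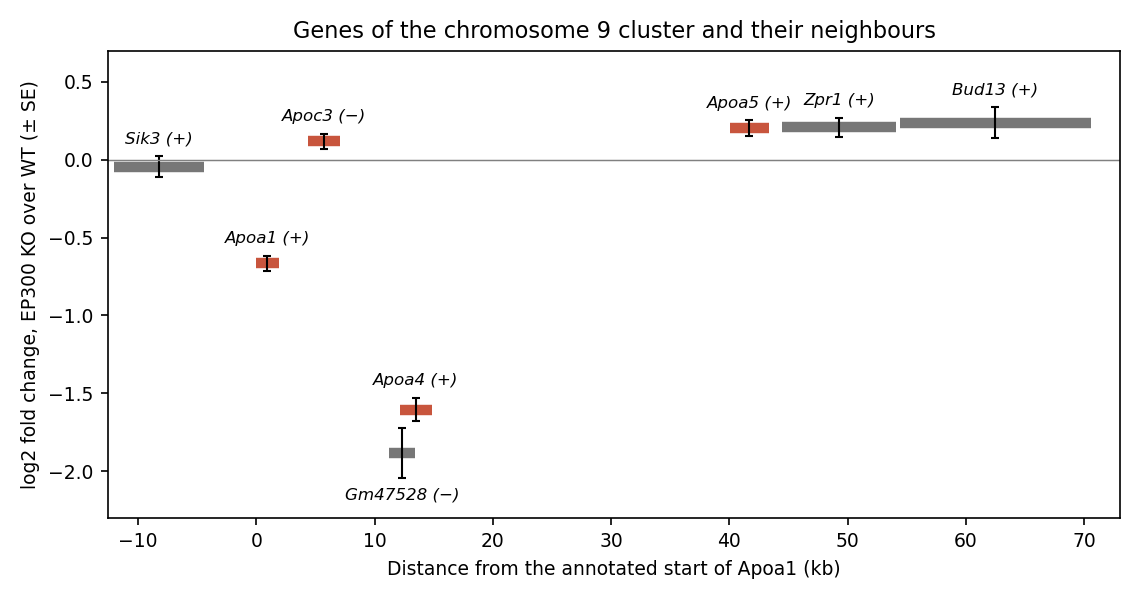
Log2 fold change (EP300 KO over WT, bars are SE) of the clustered genes (red) and of neighbours (grey) against distance in kb from the start of Apoa1; the bar of each gene spans its annotated length, Sik3 is cut at the left edge, and signs give the strand. Apoa1 (-0.67), Apoa4 (-1.60) and the overlapping Gm47528 (-1.88) lie low, and Apoc3 (0.12) between them does not.

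Among members outside the cluster, Apoa2 and Apoh rose and Apom fell. Apoa2, the second protein of HDL (chromosome 1), was at 2370.5 and 2375 CPM in EP300 WT and 3495 and 3555 CPM in EP300 KO. The groups were well apart, a 1.49-fold rise (log2 fold change 0.57, SE 0.05, adjusted p = 7.46e-08). The transcripts of these HDL proteins thus moved in opposite directions. The Apoa1 to Apoa2 count ratio was 6.68 and 6.57 in EP300 WT against 2.68 and 2.94 in EP300 KO. Apoh (chromosome 11), a phospholipid-binding plasma glycoprotein, was at 1552 and 1588 CPM in EP300 WT and 2107 and 2079 CPM in EP300 KO, a rise of 0.41 (SE 0.05, adjusted p = 4.84e-06). Apom (chromosome 17), the HDL carrier of sphingosine phosphate, was at 284 and 276 CPM in EP300 WT and 210.1 and 237 CPM in EP300 KO. It fell by 0.32 on the log2 scale (SE 0.06, adjusted p = 0.000932), but was lost when EP300 WT replicate 1 (0.0675) or replicate 2 (0.0616) was left out and when no filter on low counts was used (0.0689).

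Apob (chromosome 12) was at 4533 and 4435 CPM in EP300 WT and 5013 and 4821 CPM in EP300 KO. This rise of 0.13 (SE 0.04, adjusted p = 0.0309) was the smallest that passed, and it was lost with DESeq2 (0.0873), with upper quartile scaling (0.0627) or library size alone (0.281), and when EP300 WT replicate 1 (0.208) or replicate 2 (0.302) was left out. Apoe, the ligand of remnant receptors, was the most abundant member, at 29516 and 29737 CPM in EP300 WT and 29486 and 31153 CPM in EP300 KO. Its groups overlapped (log2 fold change 0.03, SE 0.04, adjusted p = 0.556). Apoc1, its neighbour 3448 bases away on chromosome 7, was at 985 and 966 CPM in EP300 WT and 951 and 1035 CPM in EP300 KO, also overlapping (0.03, SE 0.05, adjusted p = 0.762). With library size alone both lay slightly below zero (Apoe -0.03, Apoc1 -0.04). Without EP300 KO replicate 1 the values were 0.08 for Apoe (adjusted p = 1.83e-10) and 0.10 for Apoc1 (adjusted p = 0.0396), with 1 KO-labelled library and the spread of the WT-labelled pair alone. The Apoe to Apoc1 ratio stayed between 30.0 and 31.0 in all 4 libraries. Of 20 macrophage markers 7 rose and 6 fell, with a median log2 fold change of 0.03. Their summed level was 1541 to 1549 CPM in EP300 WT and 1663 to 1742 CPM in EP300 KO. Gpnmb went from 144 and 145 CPM in EP300 WT to 408 and 331 CPM in EP300 KO, by more than the sum did. Without Gpnmb the sum was lower in EP300 KO than in EP300 WT. Cd5l, named after its values were seen, went from 253 and 256 CPM in EP300 WT to 152 and 162 CPM in EP300 KO. With Cd5l left out as well, the sum was again higher in EP300 KO. The part of macrophage RNA in the Apoe values was not tested. In bulk RNA, fewer cells of a type and less RNA per cell cannot be told apart.

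Among further apolipoproteins and particle-bound proteins, rises outnumbered falls. Of 15 such genes 10 were tested, 5 rose and 1 fell, with a median of 0.30. Beside this and every other list, 16.7% of all genes tested passed as higher and 17.5% as lower. Among genes with a mean of at least 100 CPM, 68.3% passed, and no list was tested as a set. Saa4, a constitutive serum amyloid protein of HDL, went from 132 and 139 CPM to 338 and 327 CPM (log2 fold change 1.29, SE 0.06). Apol7a (0.66), Apon (0.64), the HDL-bound esterase Pon1 (0.53) and Apof (0.39) also rose, and Apol9a fell by 0.68. Apoc2, the cofactor of lipoprotein lipase, with 79.5% of its exon bases in other genes' exons (0.21, adjusted p = 0.456), Apoc4 (-0.08, 0.341), Apol9b (-0.07, 0.509) and Clu, or clusterin (-0.03, 0.774), did not pass. With 1 KO-labelled library, and so no spread between such libraries, the log2 fold change of Clu was 0.11 when EP300 KO replicate 2 stood alone (adjusted p = 0.000225). It was -0.17 when replicate 1 stood alone (adjusted p = 5.58e-08), so the KO-labelled libraries lay on opposite sides of the WT-labelled mean. Apoc2 and Apoc4 lie 141 bases apart beside Apoc1 and Apoe on chromosome 7, and none of these 4 genes passed. Of 8 listed neighbours of these genes, Bcam (-1.16) and Relb (-0.66) fell and Nectin2 (0.20) rose.

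A gene that acts on HDL held the largest single change of the lipoprotein lists. Of 10 genes, 4 rose and 4 fell, with a median of 0.15. Lipg, endothelial lipase, which hydrolyses HDL phospholipid, had 94 and 77 counts in EP300 WT against 1048 and 946 in EP300 KO (log2 fold change 3.68, SE 0.12, adjusted p = 9.98e-13). Lipc, hepatic lipase, rose from 49.2 and 48.6 CPM to 104 and 101 CPM (1.07, SE 0.07). The sterol exporter Abcg1 fell by 0.57. Abca1, which loads lipid onto APOA1, fell by 0.42 and the HDL receptor Scarb1 fell by 0.47, both named after their values were seen.

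Of 22 genes of particle assembly and secretion, 8 rose and 5 fell, with a median of 0.12. Fitm2, a lipid droplet protein, rose by 0.72 and Lpin1, a phosphatidate phosphatase, by 0.67, while Tm6sf2, which helps lipidate secreted particles, fell by 0.68. Mttp, the transfer protein that loads APOB with lipid, did not pass (-0.04, adjusted p = 0.650) and is named after its values were seen. Of 12 tested genes of lipoprotein uptake, 3 rose and 4 fell, with a median of -0.20. Mylip, a ubiquitin ligase that marks LDL-family receptors for degradation, fell by 0.42, and the receptor chaperone Lrpap1 rose by 0.49. Of 10 genes of plasma triglyceride lipolysis, 5 rose and 2 fell, with a median of 0.21. Lipoprotein lipase (Lpl) fell by 0.93 and Angptl8 fell by 1.31, while Angptl4, an inhibitor of that lipase, rose by 0.81.

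Of 29 tested transcription factors and coactivators that act on apolipoprotein genes, 9 rose and 6 fell, with a median of 0.10. Ep300 itself, given above, is among the 9 that rose. Nr1d1, a clock repressor, rose from 15.0 and 15.3 CPM to 72.0 and 61.6 CPM (log2 fold change 2.14, SE 0.09). Cebpb rose by 1.22, although 20.7% of its exon sequence overlaps another gene, and Nr0b2, a corepressor induced by bile acids, rose by 0.68. Named after their values were seen, Hnf4a, a main activator of the cluster, did not pass (0.10, adjusted p = 0.170), and Creb3l3, a membrane-bound activator of Apoa4 and Apoa5, rose by 0.61 (adjusted p = 3.22e-07).

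**Figure D4:**
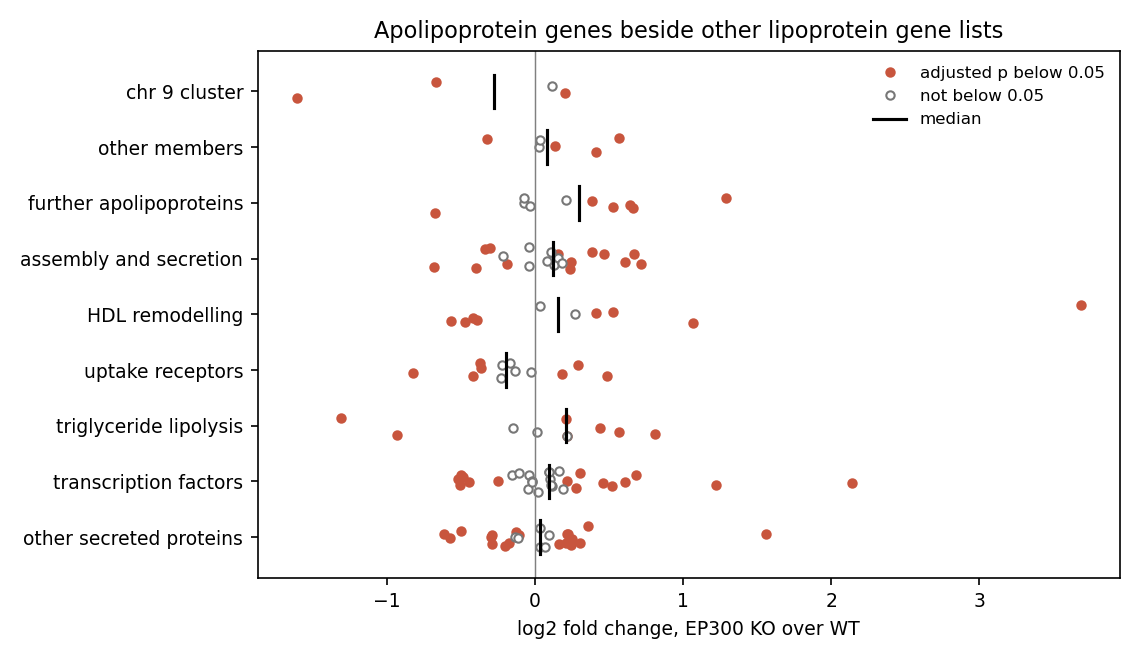
Log2 fold change (EP300 KO over WT) of every tested gene of the members and of 7 further lists; filled red points have an edgeR adjusted p below 0.05, open points do not, and black lines are medians. The clustered members have the lowest median (-0.27), set by 2 genes, and Lipg (3.68) is the highest point.

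Falls among transcripts of abundant secreted proteins were not limited to Apoa1. Of 25 other proteins secreted by hepatocytes, 9 rose and 10 fell, with a median of 0.04 (-0.030 with library size alone, and 0.17 with the 20 most abundant genes other than members left out, some of which are in this list). Ceruloplasmin (Cp) fell by 0.62, transferrin (Trf, 63.5% of whose exon sequence overlaps another gene) by 0.58 and Ahsg by 0.50. Serpina3k (1.56), transthyretin (Ttr, 0.36) and Fga (0.30) rose. The list is not a match for the members in level, and no test of a difference between them was run.

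By closeness of profile (Euclidean distance of centred log2 CPM over 4 libraries, among 7922 genes), the genes nearest to Apoa4 were Tgm1 (distance 0.0761, log2 fold change -1.61), Nxpe2 (0.0837, -1.64) and Abcc4 (0.0964, -1.57). Those nearest to Apoa2 were Agxt (0.0160, 0.56), Letm1 (0.0182, 0.56) and Ephx1 (0.0223, 0.57). With 4 libraries such closeness is a description only.

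Markers of other cells moved in the same libraries. Since the intestine makes APOA4, enterocyte markers were read, and 4 of 10 were tested. Vil1 (-2.28), Cdh17 (-1.20) and Fabp2 (-0.47) fell and Lgals4 (0.51) rose. Of those not tested, Cdx1 and Sis had 0 counts in all libraries, and the rest had counts too low for the filter. The summed level of all 10 was 58.6 to 63.3 CPM in EP300 WT and 54.8 to 55.9 in EP300 KO. In that sum the rise of Lgals4 offsets the falls. The part of intestinal RNA in the Apoa4 values was not tested. Of 12 endothelial markers 8 fell and 0 rose (Vwf -1.23, Lyve1 -0.88), with a summed level of 388 to 395 CPM in EP300 WT and 300.05 to 333 in EP300 KO. Of 12 stellate and fibroblast markers 7 fell and 0 rose (Reln -1.86, Acta2 -1.85; 324 to 331 and 208 to 216 CPM). Reln, from 116 to 31.9 CPM, held most of the fall in that sum. Of 8 tested biliary markers 3 fell and 1 rose (Tspan8 -1.63, Cldn4 1.28; 234 to 238 and 147 to 159 CPM). Most of that sum was Tspan8 (74.0 to 23.9 CPM) and Spp1 (127 to 95.7 CPM), which is also on the macrophage list. Krt19 and Epcam, at 0.60 and 1.33 CPM in EP300 WT, did not pass. Spp1, Krt19 and Epcam are named after their values were seen. Of 20 macrophage markers Marco (2.59) and Gpnmb (1.35) changed most. Of 2 lymphocyte markers tested Ptprc fell (-0.44) and Cd4 did not pass (0.96, adjusted p = 0.157). Of 5 neutrophil markers S100a9 (-0.98) and Csf3r (-0.44) fell and 3 did not pass. Of 4 erythroid markers Alas2 (2.85) and Klf1 (1.22) rose, while the globins Hba-a1 (0.10, adjusted p = 0.849) and Hbb-bs (0.28, adjusted p = 0.510) did not pass. The part of these cells in the members' values was not tested.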

How the data were processed

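RNA from sorted liver cells was made into libraries with a TruSeq RNA kit, per the labels' protocols. The deposited values are raw counts, whole numbers per gene, in 1 table whose columns match the 4 EP300 libraries by title; 4 further columns match no sample and were not used. STAR, HTSeq, DESeq2 and mm10 appear, with no role, in the submitters' processing notes; annotation and strand setting are not given in the sources used here. Symbols matched 55144 of 55385 identifiers, and gene models are GENCODE M21.

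Counts were tested with edgeR 4.0.16 in R 4.3.3 (quasi-likelihood F test, TMM scaling, filterByExpr minimum count 10, group as the only term, 2 residual degrees of freedom), with Benjamini-Hochberg adjustment over 14200 genes and a threshold of 0.05, and checked on simulated counts. SE is the absolute log2 fold change over the square root of F. RPKM divides CPM by the union of exon lengths. Alternatives were DESeq2 1.42.0, limma-voom (limma 3.58.1), other scalings and filters, the 20 most abundant non-members left out, a 1.2-fold threshold, a replicate block and each library left out. Replicates differed beyond sampling noise (chi-square per degree of freedom 2.60 in EP300 WT and 5.50 in EP300 KO). Members and lists were chosen with earlier results of these data known, so list counts are descriptions. Named genes were all members, each tested further apolipoprotein, the 3 largest called changes of each other list (3 each way for secreted proteins, 2 for cell markers) and the 3 nearest profiles of the largest rise and fall. A gene that this rule names is not reported here.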

Additional observations from a re-analysis of the deposited data

How the results depend on the processing

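Apoa1, Apoa2, Apoa4 and Apoh passed in the same direction in all 15 settings, with log2 fold changes of -0.74 to -0.58, 0.50 to 0.59, -1.74 to -1.47 and 0.35 to 0.44. Of the others, Apoa5 passed in 12 settings, Apom in 11, Apob in 9, Apoc3 in 3 and Apoe and Apoc1 in 1 each. The number of genes called, 4851, was 2703 without a filter, 2492 with the 1.2-fold threshold and 2306 to 5154 with a library left out (2602 without EP300 WT replicate 1, 2306 without its replicate 2). Members called were 4 with the 1.2-fold threshold and 4 to 10 with a library left out. The cluster's median minus that of the other members was -0.40 to -0.32 with a library left out. Genes called on the 6 lipoprotein and regulator lists numbered 54, 34 with the 1.2-fold threshold and 36 to 59 with a library left out. Reversed values were Clu, which ranged from -0.17 to 0.11 with a library left out (0.11 without EP300 KO replicate 1), the secreted proteins' median at -0.030 with library size alone and -0.0040 to 0.060 with a library left out (-0.0040 without EP300 WT replicate 1), and the macrophage median at -0.037 with library size alone; the cause was not tested. Library size alone moved the median of all genes from -0.0052 to -0.072. With the replicate block 5190 genes and 7 members were called, and the cluster difference was -0.36; deviations of same-numbered libraries correlated at -0.00075, so the numbers show no pairing. The secreted proteins' median was 0.17 with the 20 most abundant non-members left out. Each fit with a library left out takes its spread from the pair that remains. With 2 libraries a group, changes near that of Apob are at the limit of what the spread allows.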
